A study of Mus musculus with 8 samples.

Results

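NIH 3T3 cells, an immortal line of mouse embryonic fibroblasts, were profiled after 24 h in fresh Claycomb medium that had never been on other cells. They make up 3 of the 8 arrays of the series, chosen by their labels as the arrays of unused cardiomyocyte media. The study behind the series asked how HL-1 cells, a mouse cardiomyocyte line kept in Claycomb medium, and fibroblasts signal to each other and which of them makes hyaluronan. The other 5 arrays, of fibroblasts given medium taken from cardiomyocytes or its supernatant after ultracentrifugation, were not compared here. The labels describe growth of the fibroblasts in Claycomb medium and the study's methods growth in DMEM, and no array here is labelled as NIH 3T3 cells in DMEM. The study's text also assigns the deposited series to cardiomyocytes given hyaluronan, whereas every sample label names NIH 3T3 fibroblasts, and the labels were followed. The 3 arrays therefore give the starting state of the line in a cardiomyocyte medium, and not the effect of that medium. RNA came from 3 wells, which the labels number as replicates 1 to 3, and whether the wells were separate experiments is not given in the sources used here, so the spread between arrays may be technical. The 3 arrays lay on 1 chip. The methods put confluent cells into media free of serum and antibiotics ahead of the treatments, but do not say of the unused Claycomb medium itself whether it held serum or the norepinephrine of the cardiomyocytes' maintenance medium.

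Fibroblasts are the connective tissue cells that secrete collagens, proteoglycans and the enzymes that crosslink and cut them, and in the heart they make much of the matrix between the muscle cells. They also release growth factors and carry receptors, such as those for platelet-derived growth factor and transforming growth factor beta, that set their growth and their change into contractile myofibroblasts. Hyaluronan, a long sugar chain without a core protein, is made at the cell surface by the synthases Has1, Has2 and Has3. NIH 3T3 is a single long-established line of unstated sex in the labels, so its pattern need not be that of a fibroblast in tissue.

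RNA was hybridised to Illumina MouseRef-8 bead arrays, on which each of 25697 probes is read from many beads, and each value below is the mean bead fluorescence before normalization, in arbitrary units. A gene counted as detected when at least 1 of its probes had a detection p-value under 0.05 on all 3 arrays, which compares the probe with the negative control beads of the same array. Of 16584 named genes, 6891 were detected, or 41.6%, and this share is the background for every list below. The estimated background was 91.4 units on replicate 1, 93.0 units on replicate 2 and 93.4 units on replicate 3, and the arrays had 10763, 11157 and 10545 detected probes. Log2 signals of the detected genes correlated between pairs of arrays with Pearson's r of 0.979 to 0.990 over 6891 genes, which are not independent replicates. Ranks run from 1, the brightest gene, to 6891, and since probes differ in how well they bind, a rank is an order of probe signals and not of RNA amounts. Values with ± are means and SDs over n = 3 arrays throughout, and 3 values in a row are those of replicates 1, 2 and 3.

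The brightest part of the profile was the protein synthesis machinery. Ribosomal protein genes held 15 of the first 25 ranks, led by Rplp1 with 38727, 37477 and 32665 units. Of the list, 51 of 57 measured members were detected, or 89.5% beside 41.6% of all genes, with a median rank of 52. After Rplp1 came Rpl41 at 31412 ± 3589, Fth1, the heavy chain of the iron store ferritin, at 31285 ± 2057, and Rps20 at 30908 ± 1124. The next ribosomal genes were Rpl38, Rps12, Rps4x, Rpl9, Rps26 and Rpl37 at ranks 5 to 10, and Rpl23, Rps19, Rps24, Rpl10, Rpl35 and Rps2 fell between ranks 12 and 24. The remaining genes of the first 25 were of several kinds. Mt1, a metallothionein that binds zinc and copper, gave 19981, 28795 and 23608 units at rank 11, lowest on replicate 1. Pttg1ip, which binds securin, ranked 13 with 22618 ± 1589.7, and Hspa8, a chaperone made in unstressed cells, ranked 15 with 21568 ± 2119. Atp5b of the mitochondrial ATP synthase ranked 19, Cstb, an inhibitor of cathepsins, ranked 20, and Tubb5, a beta tubulin, ranked 21.

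Proteins that leave the cell or mark mesenchyme already stood among these ranks. Igf2, a fetal growth factor at chr7:142650768-142666816 of the GRCm38.p6 assembly, gave 22159.5, 25511 and 15999.8 units and ranked 16. Dlk1, a membrane protein of preadipocytes that holds back fat cell differentiation, gave 19619, 23544 and 18809.7 units and ranked 18. Spon2, a spondin secreted into the matrix, ranked 25 with 18394 ± 1701 units. All 3 genes were bright on every array, and Igf2 differed most between the arrays. The 100 brightest genes held 24.6% and the 500 brightest 52.6% of the summed signal over background of all detected genes. The median detected gene was much dimmer, at 366 units, and 1892 detected genes had a mean under 200 units.

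**Figure D1:**
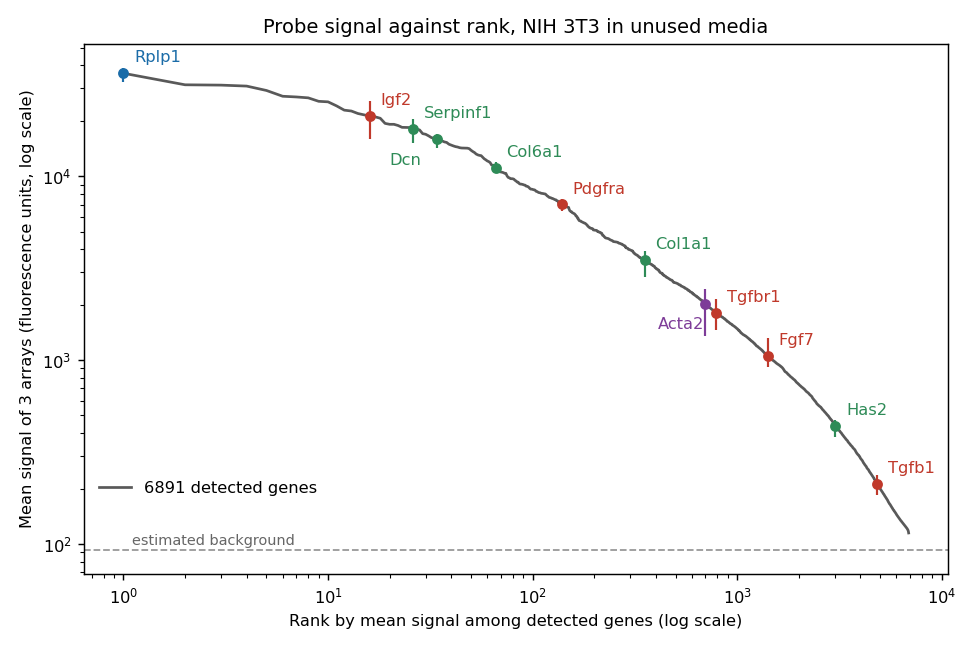
Mean signal of each of the 6891 detected genes in fluorescence units against its rank, both on log scales, with 12 genes marked as points and vertical lines from their lowest to their highest array. The curve falls from 36289.7 ± 3201 for Rplp1 toward the dashed estimated background, and the marked secreted and receptor genes spread over the whole of it.

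The promoters of detected genes and of genes not detected were set side by side, since the start region is where ubiquitous and tissue-restricted genes are known to differ in CpG content. RefSeq windows of 250 bases before to 50 bases after a start were available for 13336 of the 16584 genes. An observed over expected CpG ratio above 0.6, a common mark of CpG islands, was found in 72.5% of 7343 windows of detected genes and in 34.7% of 9196 windows of genes not detected, beside 51.5% of the 16539 windows of all measured genes and 35.8% of the 32851 windows of the whole table, which also holds genes without a probe. Along the order of detected genes the share differed little from that of all of them, with 74.4% of 519 windows of the 500 brightest genes and 72.3% of 101 windows of the 100 brightest. Odorant receptors, a large family used by sensory neurons, made up part of the genes not detected, and without them and the vomeronasal receptors the share there was 38.9%. Within the detected genes the share was 90.4% of 52 windows of ribosomal proteins and 42.5% of 73 windows of the collagen, glycoprotein, proteoglycan and matrix enzyme lists. For the members of those matrix lists that were not detected it was 36.2% of 80 windows, and both matrix shares lay under that of all measured genes. A TATAAA match on either strand was found in 7.03% of windows of detected genes, 15.8% of windows of genes not detected, 11.9% of windows of all measured genes and 13.6% of the whole table. Odorant receptors alone had the match in 40.8% of 899 windows, and without them and the vomeronasal receptors the share of genes not detected was 12.8%. Among the brightest 500 genes it was 12.3%, near that value and above the share of all detected genes, and among the brightest 100 it was 8.91%. A match anywhere in the window need not be a TATA box. Within 40 to 16 bases before the start on the gene's strand, it was found in 1.08% of windows of detected genes. There the share was 3.49% for genes not detected, 2.42% for all measured genes and 2.50% for the brightest 500. These shares describe the windows and were not tested, and genes with several starts count several times.

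The 100 bases before the RefSeq start are printed for genes picked as examples. They are a bright ribosomal gene, bright secreted and receptor genes of the fibroblast, and genes of muscle and liver that were not detected. The stretches run 5′ to 3′ on the gene's strand in GRCm38.p6, and capitals mark CpG dinucleotides and the TATAAA match. The first lies at chr5:65391432-65391531 (minus strand), the next at chr11:75422624-75422723 (minus), chr10:76726045-76726144 (minus), chr5:75152151-75152250 (plus), chr8:123894776-123894875 (minus) and chr5:90460770-90460869 (plus). The table held 1 start for Pdgfra, which lies inside the gene's RefSeq span as given further on, so that stretch precedes an internal start.
Rpl9: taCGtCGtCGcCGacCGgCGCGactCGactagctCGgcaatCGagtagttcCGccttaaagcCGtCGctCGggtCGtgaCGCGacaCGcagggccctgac
Serpinf1: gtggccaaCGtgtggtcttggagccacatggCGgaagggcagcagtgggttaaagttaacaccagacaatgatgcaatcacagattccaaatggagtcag
Col6a1: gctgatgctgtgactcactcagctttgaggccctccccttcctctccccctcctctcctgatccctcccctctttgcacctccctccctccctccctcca
Pdgfra: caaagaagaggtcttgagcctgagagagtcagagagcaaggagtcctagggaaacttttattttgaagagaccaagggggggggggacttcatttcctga
Acta1: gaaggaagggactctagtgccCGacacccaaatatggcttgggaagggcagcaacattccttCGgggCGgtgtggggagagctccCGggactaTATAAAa
Alb: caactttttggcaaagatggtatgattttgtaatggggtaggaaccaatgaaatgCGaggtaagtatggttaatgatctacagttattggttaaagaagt
The stretch of Rpl9, at rank 8, held 18 CpG dinucleotides. Those of Serpinf1, Col6a1 and Pdgfra, at ranks 26, 66 and 139, held 2, 0 and 0, and those of Acta1, the skeletal muscle actin, and Alb, serum albumin, neither of them detected, held 4 and 1. In these stretches the bright secreted and receptor genes had few CpGs, as had the genes that were not detected, and the ribosomal gene had many. Of windows of detected matrix members, 42.5% had a CpG ratio above 0.6, so the stretches do not stand for such genes as a set.

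Markers of fibroblasts and mesenchyme were set beside the label of the cells. Of the list, 24 of 32 measured members were detected, against the background of 41.6%, and 12 of them ranked in the first 1000. The brightest was Dcn, the collagen-binding proteoglycan decorin at chr10:97479500-97518163, with 16871, 16503 and 14229.9 units at rank 34 and similar values on all arrays. Lgals1, the lectin galectin-1, gave 13525, 17711 and 14855 units at rank 37. P4hb, the beta subunit of the enzyme that hydroxylates proline in collagen, gave 8805, 9533 and 7168 units at rank 98. Pdgfra, the receptor that marks fibroblasts in many organs, lay at chr5:75151322-75198206 and gave 7481, 7165 and 6435 units at rank 139. These were the 4 brightest detected members, all at rank 139 or brighter. The matricellular protein gene Sparc followed with 5209 ± 708, the mesenchymal intermediate filament Vim with 4605 ± 1131, and the proteoglycan Lum with 3993 ± 1136, the last of which differed between arrays at 2895, 3920.5 and 5164. The surface antigen Thy1 gave 1353 ± 131 units. Of the transcription factors of mesenchyme, Twist2 was at 1937 ± 104, Prrx1 at 1508 ± 568, Twist1 at 504 ± 60.2 and Snai1 at 268 ± 28.2, whereas Tcf21 and Meox1, known from fibroblast precursors of the heart and from somites, were not detected at 88.4 and 80.3 units. Fap, Cdh11, Cdh2, Eng, Nt5e and Pi16 were also not detected, with means from 91.9 to 111 units, and Fn1, Ly6a, Prrx2 and Snai2 had no named probe. Most of the listed markers were thus detected, with decorin and Pdgfra bright on every array. The list was chosen with earlier results of these data known, so this count cannot test the label.

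Collagens were split by chain. Only 14 of 37 measured chains were detected, a share of 37.8% beside the background of 41.6%, but 6 of them lay in the first 1000 ranks. Among the fibrillar chains, which form the cable-like fibres, Col5a1 gave 3629, 3874 and 4314 units, Col1a1 gave 3935, 3713 and 2841, Col3a1 gave 1331, 1547 and 1250.3 and Col1a2 gave 551, 538 and 463. Col27a1 was detected near background at 185, while Col2a1, Col5a2, Col5a3, Col11a1, Col11a2 and Col24a1 were not detected. The network chains of basement membranes, the sheets under epithelia and around vessels, were represented by Col4a1 at 1867 ± 325, Col4a2 at 880.4 ± 390.4, Col4a5 at 621 ± 127 and Col4a6 at 339 ± 26.8. Col4a2 varied more than its partner, with 952, 1229.9 and 459 units, lowest on replicate 3. The brightest chain of all was Col6a1 of the beaded filaments, with 10345, 11873 and 11154 units at rank 66 and all 3 of its probes detected. Col6a2, which pairs with it, gave 1473, 2164 and 1817 units, and Col16a1, a fibril-associated chain, gave 4098, 4554 and 3998. The 2 remaining detected chains, Col17a1 and Col28a1, stayed near background at 132 and 129 units.

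The other matrix lists showed the same mixture of a few bright members and many at background. Of the glycoproteins, 24 of 51 were detected, or 47.1% beside 41.6% of all genes. Thbs2, a thrombospondin that modulates contact between cells and matrix, led with 8422, 7828 and 7973 units at rank 110, followed in the adhesive group by Sparc, Mgp, an inhibitor of calcification, at 3482 ± 231, and Tgfbi at 1262 ± 136. Postn and Thbs1 were not detected at 82.8 and 89.6 units. Tnc was detected through 2 of 6 probes at 661 units. Of the elastic fibre group, Fbln2 gave 3718 ± 727, Ltbp3, which stores latent transforming growth factor beta in the matrix, gave 2969.99 ± 367, Emilin2 gave 1165 ± 161 and Ltbp4 gave 355 ± 19.99, whereas elastin itself, Eln, was not detected at 110.4 units. The basement membrane linkers Nid1 and Nid2 gave 2343 ± 226 and 782 ± 57.7, and the laminin chains Lamc1 and Lamb2 gave 818 ± 257 and 498 ± 55.3. Lamb1 was detected near background at 131 units, and the measured alpha chains Lama1, Lama2 and Lama4 and the chains Lamb3 and Lamc3 were not detected.

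Proteoglycans were detected in 16 of 31 cases, or 51.6% beside 41.6% of all genes. The small leucine-rich members, which bind collagen fibrils and tune their width, were Dcn, Bgn at 11437 ± 1739 and rank 65, Lum, and Ogn at 3722 ± 408, with Prelp at 351 ± 11.8 and 7 further members at background. Of the basement membrane and hyaluronan-binding group, Hspg2, the perlecan core protein, gave 2484 ± 288 and Agrn gave 1052 ± 107, and Vcan, the large hyaluronan-binding proteoglycan versican, was detected at only 142, 139 and 129.8 units. At the cell surface Gpc1, a glypican, gave 5922, 5109.9 and 4657 units, and the syndecans Sdc2, Sdc4 and Sdc3 gave 1754 ± 179, 426 ± 72.2 and 410.3 ± 35.3.

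Enzymes that build and cut the matrix were detected in 31 of 53 cases, or 58.5% beside 41.6% of all genes. Of them, 13 lay in the first 1000 ranks. Loxl1 and Lox, the oxidases that start collagen and elastin crosslinks, gave 10494, 11304 and 9707 and 6024, 5881 and 5198 units and differed little between arrays. Plod3, a lysyl hydroxylase, gave 2853 ± 433, and Pcolce, which speeds the trimming of procollagen, gave 2785 ± 614. Among the proteases, Mmp2, a gelatinase, gave 12994, 14630.1 and 15072 units at rank 45, and Mmp14, the membrane protease that activates it, gave 5213, 5409 and 5002. The next detected members of the metalloprotease group, Adam17 and Adam19, gave 428 ± 48.9 and 415 ± 34.4. Mmp3, Mmp8, Mmp10 and Mmp13 were not detected. The protease Bmp1, grouped with collagen processing, was brighter than Adam17 and Adam19, at 1248 units. The group of inhibitors and plasminogen activation also had bright members. Serpinf1, a secreted serpin known to restrain vessel growth, gave 20531, 18233 and 15214 units at rank 26. It is listed there by family and is not an inhibitor of proteases. Timp2, Timp3 and Timp1, the tissue inhibitors of metalloproteases, gave 7438 ± 499, 4501 ± 75.3 and 3269 ± 215, and Timp4 was not detected at 89.9. A gelatinase, its activating protease and 3 of 4 inhibitors of the family were thus each at rank 387 or brighter.

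**Figure D2:**
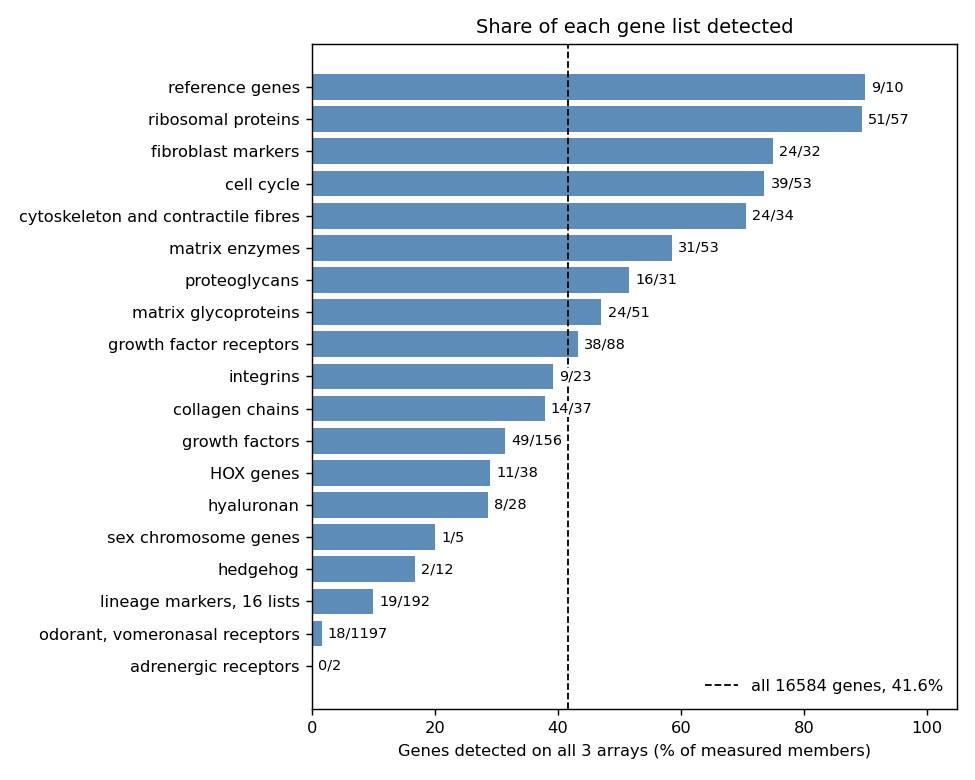
Share of measured members detected on all 3 arrays for each gene list, in percent, with the counts beside the bars and the share of all 16584 genes, 41.6%, as a dashed line. Fibroblast markers (24 of 32) lie to the right of the line and the 16 lineage lists together (19 of 192) to the left.

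Hyaluronan, the polymer measured in the study's media, depends on a short list of genes, of which 8 of 28 were detected. That share was 28.6%, under the 41.6% of all genes. Of the synthases, Has2 at chr15:56665627-56694546 was detected with 472, 381 and 458 units at rank 3025, and its mean was above that of the median detected gene. Has1 gave 82.9, 92.8 and 96.1 units and Has3 gave 95.2, 109 and 95.8, and neither was detected. Among the enzymes that supply the sugar precursors, Ugp2 was detected at 426 ± 65.7 and Ugdh was not, at 108 units. The enzymes that cut hyaluronan were brighter than background in 3 cases. Cemip2, a surface protein described as a hyaluronidase in mouse, gave 1074, 1182 and 1139 units, Hyal2, a membrane-anchored hyaluronidase, gave 823, 866 and 952, and Hyal1, the lysosomal form, gave 147, 151 and 128. Cemip itself was not detected at 88.8. Of the receptors and binders, Cd44, the main surface receptor, was detected through 2 of 6 probes with 338, 300.3 and 407 units, Hapln4, a link protein, gave 279.6, 273 and 231 and Vcan was near background. Hmmr, Lyve1, Tnfaip6, Hapln1 and Stab2 were not detected. Has2 was thus the only synthase detected, by the call on all 3 arrays and by each array alone.

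Secreted growth factors were detected in 49 of 156 cases, or 31.4%, under the background of 41.6%. Igf2 was the brightest, and Igf1, the postnatal insulin-like factor, gave 216, 232 and 223 units. Ptn, the heparin-binding factor pleiotrophin, gave 12336, 17997 and 13487 units at rank 41, highest on replicate 2, while its relative Mdk was detected through 1 of 4 probes at 136 units. Angptl4, which inhibits lipoprotein lipase, gave 3089 ± 216. The neurotrophic factors Gdnf and Bdnf gave 665 ± 66.6 and 469 ± 70.6, through 1 of 2 and 1 of 3 probes. Pros1 and Gas6, ligands of the Axl receptor family, gave 615 ± 92.6 and 510.1 ± 46.9. Csf1, Angpt2 and Nrg1 gave 338, 232 and 215 units, Angpt2 through 1 of 2 probes. Hbegf, Btc, Egf and Hgf were detected under 200 units, at 194, 150.1, 133 and 127.

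The 3 factors that the study added to cells in other experiments were looked at by name. Fgf2, a general mitogen of fibroblasts, gave 88.8, 88.3 and 91.4 units and was not detected. Pdgfb, the chain of PDGF-BB, gave 91.1, 95.1 and 100.2 units and was not detected. Tgfb2 gave 247, 259 and 221 units at rank 4489 and was detected on all arrays, with Tgfb3 at 545, 767 and 681 and Tgfb1 at 215, 238 and 184. In the FGF family the detected members were Fgf7 with 932, 917 and 1317 and Fgf10 with 643, 649 and 876, both known as mesenchymal factors that act on epithelium, and Fgf17 and Fgf21 at 130.2 and 125, near background. Of the platelet-derived and vascular factors, Vegfb gave 2439 ± 324, Vegfd 983 ± 42.1, Pdgfa 535 ± 82.3, Vegfa 528 ± 68.5 and Pdgfc 304 ± 21.8, and Vegfc gave 118. Apart from the 3 transforming growth factors, Inha at 135 was the only detected member of its family. The BMPs measured among these growth factors were at background, Bmp4 for example at 103. Bmp1, listed with the collagen processing enzymes instead, was detected at 1248. Wnt5a, the WNT of developing mesenchyme, gave 769, 987 and 999.9, and of the other 18 WNT genes Wnt7b was detected, at 120.3. Of the CCN proteins, secreted modulators of matrix signals, Ccn2, known as connective tissue growth factor, gave 3284, 2765 and 3454 units, Ccn4 gave 1859, 2127 and 1855 and Ccn1 was near background at 129.6.

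Chemokines and cytokines were detected in 14 of 42 cases, or 33.3% beside 41.6% of all genes. Mif, a cytokine that many cells store, gave 8414, 11310.1 and 11377 units at rank 74. Cxcl12, the stromal chemokine that holds stem cells in marrow, gave 4206, 3919 and 4093. Its arrays agreed closely, but only 3 of its 5 probes were detected. Ccl7, a monocyte chemokine, gave 1492, 1719.97 and 2203, highest on replicate 3. Cx3cl1 gave 529 ± 31.4, Ccl27a 505 ± 79.2, Il18 339 ± 66.6, Ctf1 287 ± 16.8 and Il15 275 ± 38.3. Ccl8, Ccl25, Il11, Ccl11, Ccl17 and Ccl2 were detected between 143 and 189 units. The acute inflammatory genes Il6, Il1b, Tnf and Cxcl1 were not detected, with means of 104, 88.8, 82.8 and 112 units.

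Receptors were detected in 38 of 88 cases, or 43.2%, close to the background of 41.6%. Pdgfra was the brightest of them, and the probe of its relative Pdgfrb gave 383, 325 and 258 units. Axl, a receptor tyrosine kinase for Gas6, gave 7149, 7239 and 6134 units at rank 144. Ghr, the growth hormone receptor, gave 2171, 2210.4 and 2528, and Ryk, a WNT receptor, gave 2271, 2352 and 1789. Of the listed receptors for transforming growth factor beta, activin and BMP, 6 of 15 were detected, or 40%. Tgfbr1 gave 1462, 1825 and 2152 through 2 of 4 probes, and Tgfbr2 gave 1826, 1472 and 1624 through 1 of 2. Tgfbr3, the accessory receptor betaglycan, gave 1609, 1448 and 1062, and Eng of the same group was not detected at 91.9. The ligands Tgfb1, Tgfb2 and Tgfb3 and the receptors Tgfbr1, Tgfbr2 and Tgfbr3 were therefore above background on each array. The neuropilin Nrp1 gave 1680.1 ± 214, Igf2r, which takes up and clears Igf2, gave 1547 ± 138, and Osmr gave 986 ± 204. The FGF receptors were dim, Fgfrl1 at 337 ± 48.4, Fgfr1 at 317 ± 54.02 through 1 of 2 probes and Fgfr2 at 153 ± 21.1. Igf1r gave 126, 176 and 134 units, just above background, and Insr was not detected at 80.4.

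The further detected receptors were Il13ra1, Pdgfrl, Acvr1, Egfr, Ror2, Tnfrsf1a, Fzd7, Ifngr2, Bmpr1a, Fzd2, Acvr2b, Mertk, Ddr2, Ifngr1 and Lrp6, from 546 down to 230.2 units, and Ddr1, Fzd6, Il1rap, Fzd3, Fzd8, Ifnar2 and Nrp2 under 200 units. Egfr, whose ligands include Hbegf and Btc, was detected through 3 of 4 probes. The endothelial receptors Flt1, Kdr, Tek and Tie1 and the neurotrophin receptors Ntrk2 and Ntrk3 were not detected. Il6st, the shared signal chain of the receptors for Il6 and related cytokines, was not detected at 94.999 units although Osmr, which signals with it, was.

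**Figure D3:**
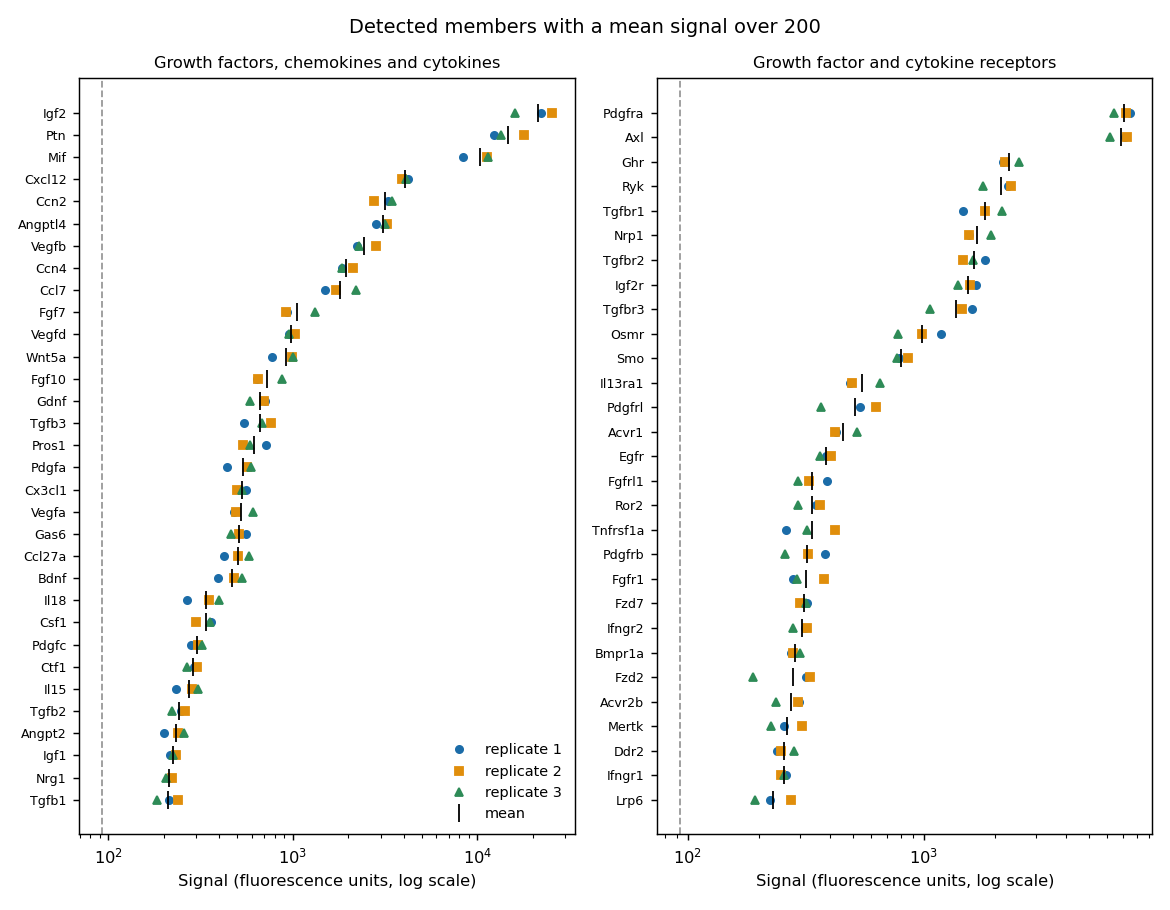
Signal on each of the 3 arrays, on a log scale in fluorescence units, for the detected ligands (left, led by Igf2 and Ptn) and receptors (right, led by Pdgfra and Axl) with a mean over 200 units. Symbols mark the replicates, short bars the means and the dashed line the estimated background.

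Signals from hedgehog, integrins and norepinephrine were examined through their receptors. Smo, the membrane transducer of the hedgehog pathway, gave 786, 855 and 768 units through 3 of 3 probes. Its receptor and target Ptch1 was at 89.3, 87.4 and 83.01, and the targets and transcription factors Gli1 and Gli3 were at 95.6 and 111, none of them detected. The inhibitor Hhip was detected near background at 127, so 2 of 12 members of the list were detected, or 16.7%. Integrins, which anchor cells to matrix, were detected in 9 of 23 cases, or 39.1%. The share of all genes was 41.6%. Itga11, a collagen receptor of fibroblasts, gave 592, 594 and 519 units, Itgb5 gave 569, 562 and 436 and Itga5, the fibronectin receptor, gave 351, 419 and 475. Itgb1, the beta chain that both of these alpha chains pair with, gave 154, 163 and 185, and Itgav was not detected at 113. Itga2b, Itga9, Itgb2, Itga6 and Itga3 were detected between 126 and 202 units. Of the adrenergic receptors, which norepinephrine in the maintenance medium of the cardiomyocytes would act on, Adra1b and Adra2c had a probe and were not detected at 87.2 and 107 units, and the other 7 had no named probe, so the list says little about this response.

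HOX genes, transcription factors that keep a record of where along the body axis a mesenchymal cell came from, were detected in 11 of 38 cases. That share was 28.9%, under the 41.6% of all genes. The A cluster had Hoxa5 with 2677, 3773 and 4299 units at rank 339, Hoxa7 with 1543, 1854 and 1813, Hoxa2 with 467, 611 and 613 and, near background, Hoxa13 at 125 through 1 of 3 probes. None of the 10 measured genes of the B cluster was detected. The C cluster had Hoxc6 with 338, 431 and 572, highest on replicate 3, and Hoxc9 at 117. The D cluster had Hoxd8 with 721, 747 and 1101, Hoxd9 with 232, 252 and 246, Hoxd4 with 230.3, 228 and 258, Hoxd3 with 163, 202 and 178 and Hoxd10 at 133. Of the paralogue groups 11 to 13, at the tail and limb end of the clusters, only Hoxa13 passed the call.

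**Figure D4:**
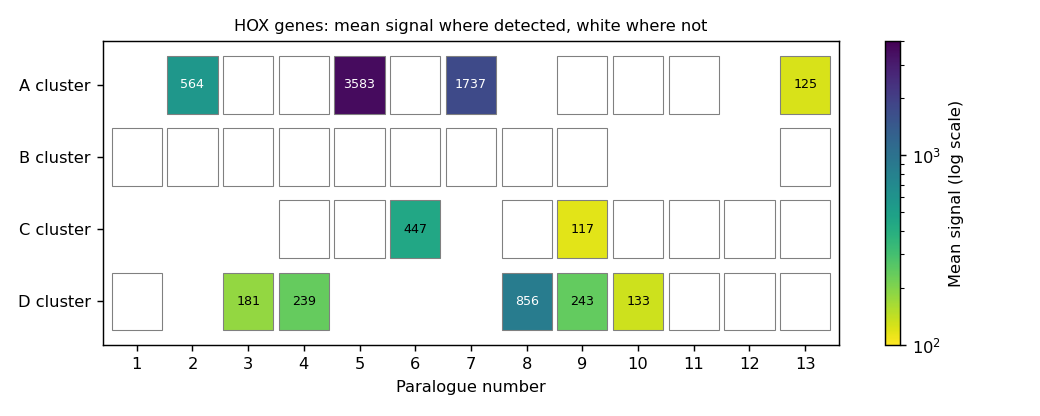
HOX genes by cluster (rows) and paralogue number (columns), coloured by the mean signal of 3 arrays on a log scale where detected and white where not, with a box for each of the 38 measured genes. Hoxa5, at 3583 units, is the brightest, and the B cluster has no detected gene.

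The cytoskeletal list was split into general members and members of the contractile programme. Of the general cytoskeletal genes, 18 of 20 were detected, or 90% beside 41.6% of all genes. The brightest were Tubb5 at 19148 ± 1574, Actb at 16216 ± 2788, Tuba1b at 15260.2 ± 3419 and the actin-sequestering Tmsb4x at 9056 ± 1353. Tubb5 was detected through 1 of 2 probes and Actb through 3 of 5. Of the genes of smooth muscle and myofibroblasts, 6 of 14 were detected, or 42.9% beside 41.6% of all genes. Tpm1, a tropomyosin, gave 4781, 7018 and 5389 units and Acta2, the smooth muscle actin by which myofibroblasts are usually recognised, gave 1343, 2427 and 2315, lowest on replicate 1. Tpm2 and Smtn gave 986 ± 62.6 and 518 ± 163, and Mylk and Des were at 199.7 and 122 units. Acta2, Tpm2 and Smtn were detected through 3 of 4, 1 of 3 and 2 of 3 probes. Tagln, Cnn1, Myh11, Cald1 and Myocd, which differentiated smooth muscle cells express, were not detected and had means of 92.8, 93.5, 94.01, 104 and 96.2 units.

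Genes of the cell cycle were detected in 39 of 53 cases. That share was 73.6%, beside 41.6% of all genes. The list also holds inhibitors of the cycle, so the count does not measure how many cells were dividing. The methods describe confluent cells and media without serum ahead of the treatments, but whether the unused medium held serum is not stated. In mitosis, Cenpa, the histone variant of centromeres, gave 5398, 6853 and 7110.4 units, Cdk1 gave 1253, 2052 and 2188, Cdc20 gave 1356, 1747 and 1675 and Birc5 gave 806, 1373 and 1323. In DNA replication, Mcm4 and Mcm5 of the replicative helicase gave 2872 ± 289 and 1713 ± 79.98, and Fen1 and Tk1 gave 1469 ± 278 and 1165 ± 156. The G1 cyclins Ccnd3, Ccnd1 and Ccnd2 gave 2044 ± 109.7, 1536 ± 91.7 and 1351 ± 356, and Mdm2, a target and inhibitor of p53, gave 1592 ± 109. The cell cycle inhibitor Cdkn2a, whose locus NIH 3T3 cells are known to have lost, gave 104, 123 and 120.2 units and passed the call on replicates 2 and 3 but not on replicate 1, so it was not detected by the rule. Its neighbour Cdkn2b gave 89.7, 97.2 and 113 units and was not detected. The inhibitors Cdkn1a and Cdkn2c were detected at 1092 ± 192 and 817 ± 121. Ccnb2, Ccna2 and Bub1 were not detected, so the members that define mitosis did not all pass. Cdk1, Mcm4 and Ccnd3 were each detected through 1 of 3 probes, and Tk1 and Mdm2 through 2 of 3. With all probes of a gene required to pass, 27 of the 53 members were detected, beside 5178 of all 16584 genes under the same rule.

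Markers of 16 other lineages were looked at in the same way as those of fibroblasts. Of 192 measured markers, 19 were detected, or 9.90% beside the background of 41.6%, and none reached 1000 units. These lists too were chosen with earlier results of these data known, so the count cannot test which cells were absent. The median signal of the markers not detected was 95.1 units, close to the estimated background. None of the measured markers of hepatocytes (13), lymphocytes (13), bone (8) and retina and olfactory cells (9) was detected, among them Alb, Afp and Apoa1, Cd3d, Cd3e and Cd3g, Sp7, Bglap and Ibsp, and Rcvrn, Pde6b and Crx. The first neuronal, glial, endothelial and macrophage markers were also at background, with Rbfox3 at 90.1, Gfap at 88.6, Pecam1 at 92.4 and Adgre1 at 104 units. Tubb3 and Map2 of neurons gave 83.3 and 98.3 units, and Cdh1 and Krt5 of epithelia gave 91.1 and 97.8. Pou5f1, Nanog and Sox2, factors of pluripotent cells, gave 97.99, 96.7 and 96.5, and none of these 7 genes was detected.

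The brightest exceptions were 2 cartilage regulators and enzymes. Sox5 gave 721, 697 and 510.3 units through 2 of 4 probes and Sox9 gave 457, 518 and 566, while the cartilage matrix genes Col2a1, Acan and Comp, which these factors are known to switch on, were at 100.04, 95.1 and 108 and not detected. Lpl, the lipoprotein lipase of fat and muscle, gave 431, 462 and 602, with Lep at 124 and the fat cell genes Adipoq, Plin1 and Fabp4 not detected at 109.5, 89.02 and 83.6. Cela1, a pancreatic elastase also transcribed in other tissues, gave 358, 368 and 307. Myl4, an atrial and embryonic myosin light chain, gave 217, 231 and 323 and Tnnc1, the troponin of heart and slow muscle, gave 148, 197 and 201, whereas the other 16 measured markers of cardiomyocytes, including Myh6, Myh7 and Tnni3 at 108, 119 and 82.8, were not detected. Since the medium had not been on cardiomyocytes, these values are the level of those probes in a medium not conditioned by cardiomyocytes.

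The rest of the 19 were dim. Itga2b and Cd14 gave 202 ± 33.9 and 202 ± 15.4 units, Egfl7 172 ± 11.4 and Gp1bb 149 ± 2.21. Tnni2, Elf3, Krt14, Hba-a1, Krt8, Mbp, Nefl and Dppa5a lay between 119 and 136 units. The dim end of the order also held genes with no known role in fibroblasts: 18 of 1197 odorant and vomeronasal receptor genes, a family picked after values were seen, were detected, or 1.504%, with means of 115 to 143 units. In the same range a pass of the detection call is thus seen in sensory receptor genes too. Of the 15 measured Y-linked genes none was detected, and Xist, the RNA that coats an inactive X chromosome, was at 123, 132 and 129 units with 1 of 2 probes detected.

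**Figure D5:**
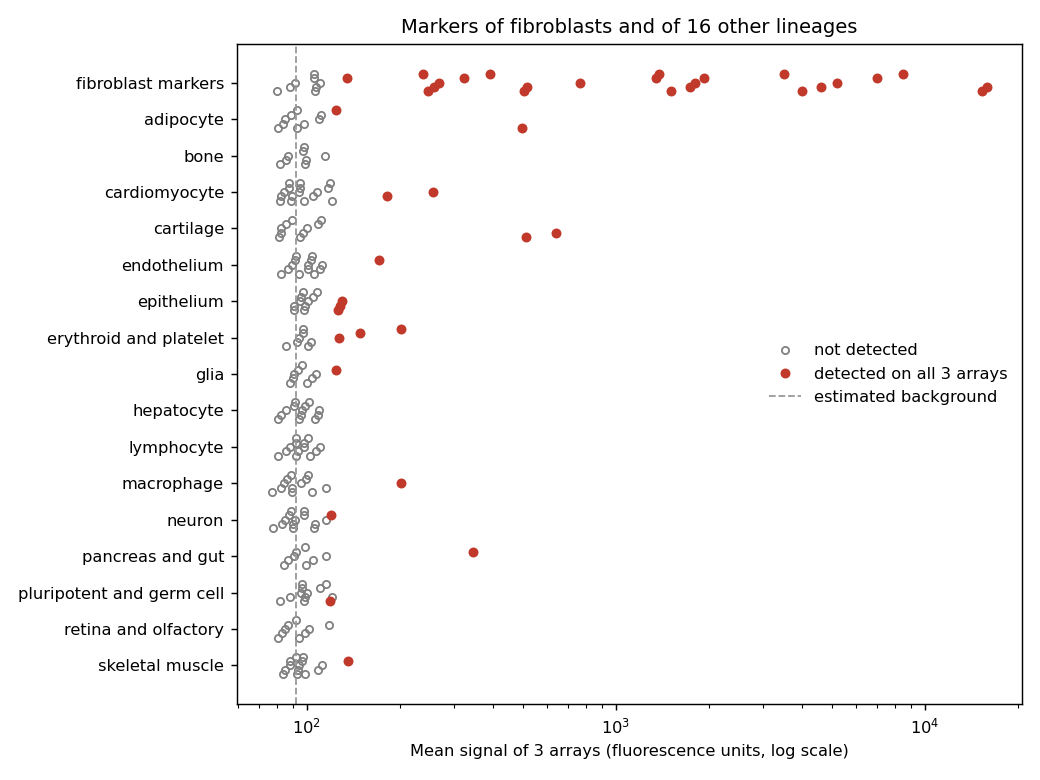
Mean signal of 3 arrays, on a log scale in fluorescence units, of each measured marker of fibroblasts (top row) and of 16 other lineages; filled points were detected on all 3 arrays, open points were not, and the dashed line is the estimated background. Fibroblast markers reach 15868 ± 1431 units for Dcn and the markers of other lineages stay under 1000.

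A gene that was not detected is not shown to be silent. Of ribosomal protein genes, which every cell uses, Rpl6, Rpl14, Rpl17, Rplp2, Rps23 and Rpsa were not detected, at 106, 93.8, 113, 101, 89.3 and 98.1 units. The glycolytic enzyme Pgk1 at 90.3 was the only 1 of 10 reference genes below the call, and the actin Actg1 at 112 and Tln1 at 102 were the only ones of 20 general cytoskeletal genes. The reference genes Actb, Gapdh and B2m gave 16216 ± 2788, 14225 ± 2054 and 7506 ± 1814, and Rplp0 gave 1268 ± 216 through 1 of 2 probes. Of 4781 genes with several probes, 1713 had some probes detected and others not, 1031 had all detected and 2037 had none. A count of members not detected can therefore include genes whose probe stayed at background for reasons that were not tested.

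The 3 arrays were close but not equal. The median SD was 11.004% of the mean over the detected genes, and 572 of them (8.30%) differed more than 2-fold in signal over background between their lowest and highest array. The share was 14.3% of genes under 200 units, 7.15% of those from 200 to 1000 units and 3.36% of those above. Of the 572, replicate 1 was lowest for 298 and replicate 3 for 251, and replicate 2 was highest for 313. Replicate 3 also had the widest spread between beads, with a median bead standard error of 9.55% of the signal, beside 5.13% on replicate 1 and 4.33% on replicate 2. The largest ratio was that of Rbm45, an RNA-binding protein, with 116, 326 and 318 units, then Stk25 with 120.1, 319 and 199 and Ggact with 125, 357 and 243. The next 7 were Paip1, Polh, Rab1b, Ctsa, Hspbp1, Fhl3 and Gpr137b, all with means from 162 to 267 units. None of these 10 genes belonged to the bright lists above. At the limit of the call, Olfr846 and D630023F18Rik were just inside with a highest detection p-value of 0.0489, and Tmem176a and Ube2v2 were just outside at 0.0501.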

How the data were processed

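Total RNA of NIH 3T3 fibroblasts was amplified, labelled and hybridised by the authors to Illumina MouseRef-8 bead arrays. The deposited table, written by BeadStudio 3.3 per the submitters' notes on processing, holds for each probe and array the mean bead intensity before background subtraction and normalization, the bead standard error, also as an intensity, the count of beads and a detection p-value. A second deposited table holds the intensity after the authors' background subtraction and normalization; 27.6% to 27.7% of its values lay below 0 on these arrays, so it served only as an alternative. Each value was read from 37 to 39 beads at the median, and the number of arrays, 3, limits the precision.

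Here the intensities were used as deposited for detection and rank. Probes were named through the platform annotation and RefSeq (GRCm38.p6): 23978 of 25697 probes had 1 gene, 1719 had none or several and were left out, and 9 symbols were updated. A gene was detected if any of its probes had a detection p-value under 0.05 on all 3 arrays, and its brightest detected probe stood for it. Background was estimated and normexp correction, an offset of 16 and quantile normalization were run with limma 3.58.1 in R 4.3.3 for alternatives; tables were made with Python 3.11.15, pandas 2.3.3 and numpy 2.4.6. The gene assignment and the background step were tested on simulated data. No groups were compared and no test was made.

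The 33 gene lists name 985 genes, 863 with a probe. The members and lists were chosen with earlier results of these data known. Named were the 25 brightest genes, the 4 brightest detected members of each role in a list, every detected ligand, receptor, hyaluronan, hedgehog, integrin, HOX and lineage gene, some of the first 3 markers of the lineages, a short list of hyaluronan, growth factor, reference and sex chromosome genes, the genes nearest the detection limit and the 10 that differed most between arrays. Other genes, among them most members named as not detected, were chosen after their values were seen.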

Additional observations from a re-analysis of the deposited data

How the results depend on the processing

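The number of detected genes, 6891, was 6248 at a detection p-value under 0.01, 7599 with detection on at least 2 arrays, 8661 on at least 1 array, 5178 where all probes of a gene had to pass and 6056 with a signal over background above 50. Leaving out each replicate in turn gave 7000 to 7278. Counts of members moved by more than 1.5 times only for lists that are short or dim. Lineage markers went to 11 at the stricter p-value, 47 on at least 1 array and 10 with the signal limit. Hedgehog members went to 1 at the stricter p-value, 4 on at least 2 arrays, 6 on at least 1 array and 1 with the signal limit. Integrins went to 16 and adrenergic receptors to 1 on at least 1 array. The sex chromosome list, with Xist alone detected, went to 0 at the stricter p-value, with all probes or with the signal limit, and to 2 on at least 1 array. Reference genes went to 4 when all probes had to pass. The number of genes differing over 2-fold between arrays, 572, was 425 after normexp and quantile normalization, 539 in the authors' normalized values and 446 after median scaling.

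Ranks of 228 named genes stayed within 1 SD of the ranks on single arrays for all 228 under the geometric mean, both normalizations and median scaling, and for 223 to 226 without 1 replicate. Averaging all probes of a gene moved 168 of them, and the dimmest detected probe, an alternative chosen after seeing the data, moved 164, so ranks depend on which probe stands for a gene. No paired analysis was possible because no groups were compared. The 3 arrays share 1 chip, a signal near background cannot tell absence from a probe that binds poorly, and probes are not calibrated against each other.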

Other observations

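Gene groups outside the lists were described after their values were seen, by the symbols of their families, with the background of 41.6% detected genes beside them. Machinery that most cells run was nearly complete. Of the 16 genes of ATP synthase, 15 were detected, led by Atp5b at 19370.4 ± 2467 and Atp5g3 at 15813 ± 676 units. Of genes named for complex I of the respiratory chain, 35 of 40 were detected with a median rank of 465, and of the mitochondrial ribosome 70 of 76 with a median rank of 1657. Proteasome genes were detected in 32 of 37 cases, led by Psmb4 at 9696 ± 1839.6 units. All 6 subunits of the MCM helicase that unwinds DNA for replication were detected. In contrast, 5 of 80 potassium channel genes and 4 of 47 keratin genes were detected, and of the keratins Krt10 alone was above 200 units, at 697, 737 and 808.

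Igf2 and Dlk1, at ranks 16 and 18, are both imprinted, that is, copied mainly from the chromosome of 1 parent, and other imprinted genes were therefore listed. Of 33 with a probe, 12 were detected, or 36.4% beside 41.6%, with a median mean signal of 1128 units over those 12, 6 of them above 1000. Grb10, which restrains insulin signals, gave 3648, 4046 and 3751 units at rank 314, Impact gave 2201, 2409.6 and 2574, Ndn gave 1781, 1791 and 2063 and Igf2r gave 1674, 1566 and 1399.6. Gnas gave 499, 977 and 653 through 2 of 4 probes, and Peg3 and Mkrn3 were dim at 186 ± 19.8 and 181 ± 40.2. Cdkn1c, Mest, Plagl1, Peg10, Phlda2 and Sgce were not detected, with means of 109.8, 115, 115, 113, 107 and 86.4 units. Rtl1 and Dio3, which lie in the same imprinted cluster as Dlk1, were at background with 88.2, 91.4 and 88.6 and 85.01, 90.04 and 82.6 units. The list was drawn up after Igf2 and Dlk1 were seen and holds both, so it says nothing about imprinted genes as a class. H19 and Meg3, the neighbours of Igf2 and Dlk1 that are expressed from the other parent's copy, had no named probe here.

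Prl2c3, of a family also called proliferins and first described in proliferating mouse fibroblasts, ranked 62 with 8834, 11018 and 15715 units. The family has closely similar members, and whether their transcripts also bind this probe was not tested.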
